A study of Homo sapiens with 18 samples.

Results

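The genes described here are 39 genes of the contractile apparatus and actin stress fibres, a list of smooth muscle, myofibroblast and stress fibre genes. Members were picked by name, from a list drawn up with earlier results of these libraries known. They were found among 35579 genes with a transcript in the deposited tables, and 38 of the 39 were among the 13527 genes that passed the count filter. The exception was MYH11, the smooth muscle myosin heavy chain, which stayed between 0.134 and 1.14 CPM (counts scaled to a library of 1e6 counts) in the 18 libraries. By role they are 4 actin isoforms, 6 myosin chains with the myosin light chain kinase MYLK, 4 tropomyosins, 7 thin filament regulators, 6 filament crosslinkers, 10 focal adhesion and LIM domain proteins, and 2 transcription factors.

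The libraries are poly(A)-selected RNA from hiF-T, a line of fibroblast-like cells made from BJ skin fibroblasts in which telomerase (hTERT) expression can be induced. Its genotype is given as wild type in the control libraries, and the hTERT construct is shared by every group. The control group (4 libraries) carries control guide 1 or 2, titled backbone. The other groups carry CRISPR guides against CDKN1A (guides 1 and 2, 4 libraries), KDM1A (guides 2 and 3, 4 libraries) or SPP1 (guides 1, 2 and 3, 6 libraries), with 2 biological replicates for each guide. CDKN1A encodes the cell cycle inhibitor p21, KDM1A the histone demethylase LSD1, and SPP1 the secreted protein osteopontin. How the guides lower their target, what the control guides target, whether hTERT was induced, when cells were sampled and whether replicates were separate cultures is not stated by the labels. The p-values therefore measure the spread between these libraries, which may be technical. The comparisons ask how the contractile mRNAs stand in each knockdown, with the guides against KDM1A kept apart.

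Stress fibres are bundles of actin filaments that slide on non-muscle or smooth muscle myosin, are crosslinked by alpha-actinins and filamins, and end in focal adhesions. Fibroblasts that take on a contractile state, as in wound repair and fibrosis, are called myofibroblasts and add smooth muscle actin (ACTA2), calponin and transgelin to the cytoplasmic actins that all cells use. Many of these genes are transcribed by serum response factor (SRF), which binds a DNA element called the CArG box. Its cofactor MRTFA is held in the cytoplasm by free actin monomers and released when filaments assemble.

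The CArG box was searched in RefSeq promoters (GRCh38.p14, from 250 bases before to 50 after each start), since it is the element that these genes are known to share. The list was not drawn from sequence, but many of its genes are known for SRF control. A share above that of all genes could therefore be foreseen and describes the list without testing it. An exact 10-letter match, the same on both strands, stood in at least 1 window of 12 of the 35 members with an entry (34.3%), against 438 of 27305 genes (1.6%). By window, 14 of 81 (17.3%) of the members' windows held it, against 454 of 35116 (1.29%) of all. Windows of a gene can overlap, and a box of FHL2 is counted in more than 1 of them. Members with a match were ACTG2, ACTG1, MYLK, TPM4, CNN2, ACTN1, FLNA, LPP, TGFB1I1, FHL1, FHL2 and SRF. ACTB, MYL9, MYH11 and TAGLN had no entry in the table. The stretches below are those around the boxes of ACTG2, ACTN1, CNN2, TPM4 and SRF, and around the closest 10 letters in the promoters of ACTA2 and LMOD1, which differ from the box at 1 letter. They are members whose values are described further on, read 5′ to 3′ on the strand of the gene, with the box or the closest match in capitals. None overlaps an exon of GENCODE 29.
ACTG2, chr2:73892868-73892937, plus strand: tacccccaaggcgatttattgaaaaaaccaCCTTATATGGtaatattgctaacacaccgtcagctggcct
ACTN1, chr14:68977698-68977767, minus strand: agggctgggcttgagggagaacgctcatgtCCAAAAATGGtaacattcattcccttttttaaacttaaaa
CNN2, chr19:1026489-1026558, plus strand: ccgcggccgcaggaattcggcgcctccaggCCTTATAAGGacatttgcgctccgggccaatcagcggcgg
TPM4, chr19:16067335-16067404, plus strand: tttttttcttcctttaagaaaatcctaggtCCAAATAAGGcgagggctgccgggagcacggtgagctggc
SRF, chr6:43171209-43171268, plus strand: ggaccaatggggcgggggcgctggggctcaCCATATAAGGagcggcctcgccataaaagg
ACTA2, chr10:88952855-88952924, minus strand: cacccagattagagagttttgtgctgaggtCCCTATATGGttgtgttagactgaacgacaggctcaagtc
ACTA2, chr10:88952805-88952874, minus strand: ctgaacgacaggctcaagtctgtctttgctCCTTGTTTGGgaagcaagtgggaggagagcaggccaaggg
LMOD1, chr1:201946694-201946763, minus strand: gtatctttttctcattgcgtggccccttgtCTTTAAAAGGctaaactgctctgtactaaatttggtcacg
The capitals begin 110 bases before the start of ACTG2, 171 before ACTN1, 89 before CNN2, 173 before TPM4, 30 before SRF, 121 and 71 before ACTA2, and 185 before LMOD1. ACTG2 and SRF each have a second box, beginning 73 and 10 bases before the start, and that of SRF stands in lower case at the end of its line. LMOD1 has another match with 1 letter outside the box, 160 bases before its start. A match is a string of letters, and binding was not measured.

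The total estimated count of a library was 11.9 to 17.0 in units of 1e6. Mitochondrial genes took 1.81 to 2.42% of counts. Each targeted mRNA was checked first. KDM1A libraries measured 42.8 to 63.3% of the control mean of KDM1A mRNA, CDKN1A libraries 44.8 to 71.0% of that of CDKN1A, and SPP1 libraries 33.5 to 97.5% of that of SPP1. All 4 KDM1A, all 4 CDKN1A and 5 of the 6 SPP1 libraries lay below every control library for their target. Among the SPP1 libraries, replicate 2 of guide 2 equalled the lowest control to 3 digits, both at 55.2 CPM. Replicate 1 of SPP1 guide 3, at 63.0 CPM, lay within the controls. Of the marker genes of other cells, all 4 leukocyte, 3 of 4 endothelial, 3 of 4 melanocyte, 3 of 5 keratinocyte and 5 of 7 striated muscle genes stayed under 1 CPM in every library. The exceptions KDR, MLANA, KRT14, ACTC1 and MYH3 reached at most 1.6, 1.2, 2.46, 2.23 and 1.27 CPM. The keratinocyte marker KRT10 measured 49.3 to 67.8 CPM. Of 5 smooth muscle markers, DES and ITGA8 also stayed under 1 CPM, whereas KCNMB1 measured 0.442 to 1.29, MYOCD 4.94 to 13.5 and SMTN 299 to 369 CPM. Of 8 fibroblast markers only THY1 stayed under 1 CPM, and the 8 summed to 14132 to 14788 CPM in control libraries. RNA of bulk cultures cannot tell fewer contractile cells from less contractile mRNA per cell.

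The members together held 4.43 to 4.81% of the counts of a control library. On the length-corrected TPM scale, the cytoplasmic actins led the controls, with ACTG1 at 8737 ± 494 (SD, n = 4) and ACTB at 8676 ± 336 TPM, which do not differ beyond their spread. Next came the myosin light chain MYL6 at 3672 ± 265, transgelin (TAGLN) at 1956 ± 167 and the tropomyosins TPM4, TPM1 and TPM2 at 1688 ± 172, 1587 ± 161 and 1579 ± 175 TPM. The smooth muscle actins were far lower, ACTG2 at 147 ± 7.33 and ACTA2 at 125 ± 36.0 TPM. At the end of the order stood calponin 1 (CNN1, 11.8 ± 1.55), the actin filament regulator synaptopodin 2 (SYNPO2, 0.764 ± 0.285), leiomodin 1 (LMOD1, 0.468 ± 0.168) and MYH11 (0.303 ± 0.188 TPM). Some of these levels are shared with near copies. Of the 31-base stretches in the leading transcript, 28.3% for ACTB, 21.9% for ACTG1, 21.3% for TAGLN (all in the overlapping gene PCSK7), 19.5% for TPM3, 19.4% for TPM4, 18.9% for MYL6 and 15.2% for TAGLN2 (all in the pseudogene TAGLN2P1) also occur in another gene, so their values are less certain than those of ACTA2 (1.21%), ACTG2 (2.53%), CNN1, LMOD1 or SYNPO2 (none). The strand setting of the quantification is not given, so reads of antisense genes cannot be told apart.

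In the KDM1A knockdown the guides differed most in ACTA2, LMOD1, CNN1 and ACTG2. ACTA2 (ENSG00000107796, chromosome 10, 88935074 to 88991339, GRCh38), the smooth muscle alpha-actin that marks myofibroblasts, measured 293 and 307 CPM in the libraries of KDM1A guide 2 but 72.6 and 68.5 CPM in those of guide 3. The control libraries measured 69.1 and 63.1 CPM with guide 1 and 113 and 110 CPM with guide 2. Both libraries of KDM1A guide 2 were thus above every other library of the study, whereas those of guide 3 lay within the range of the controls. With 1 coefficient per guide in the model, ACTA2 was 3.50-fold control with guide 2 (log2 1.81 ± 0.14 (SE), adjusted p 5.54e-07) and log2 -0.28 ± 0.16 with guide 3, which did not pass (adjusted p 0.291). The difference between the guides was log2 -2.09 ± 0.17 (adjusted p 4.22e-06).

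**Figure D1:**
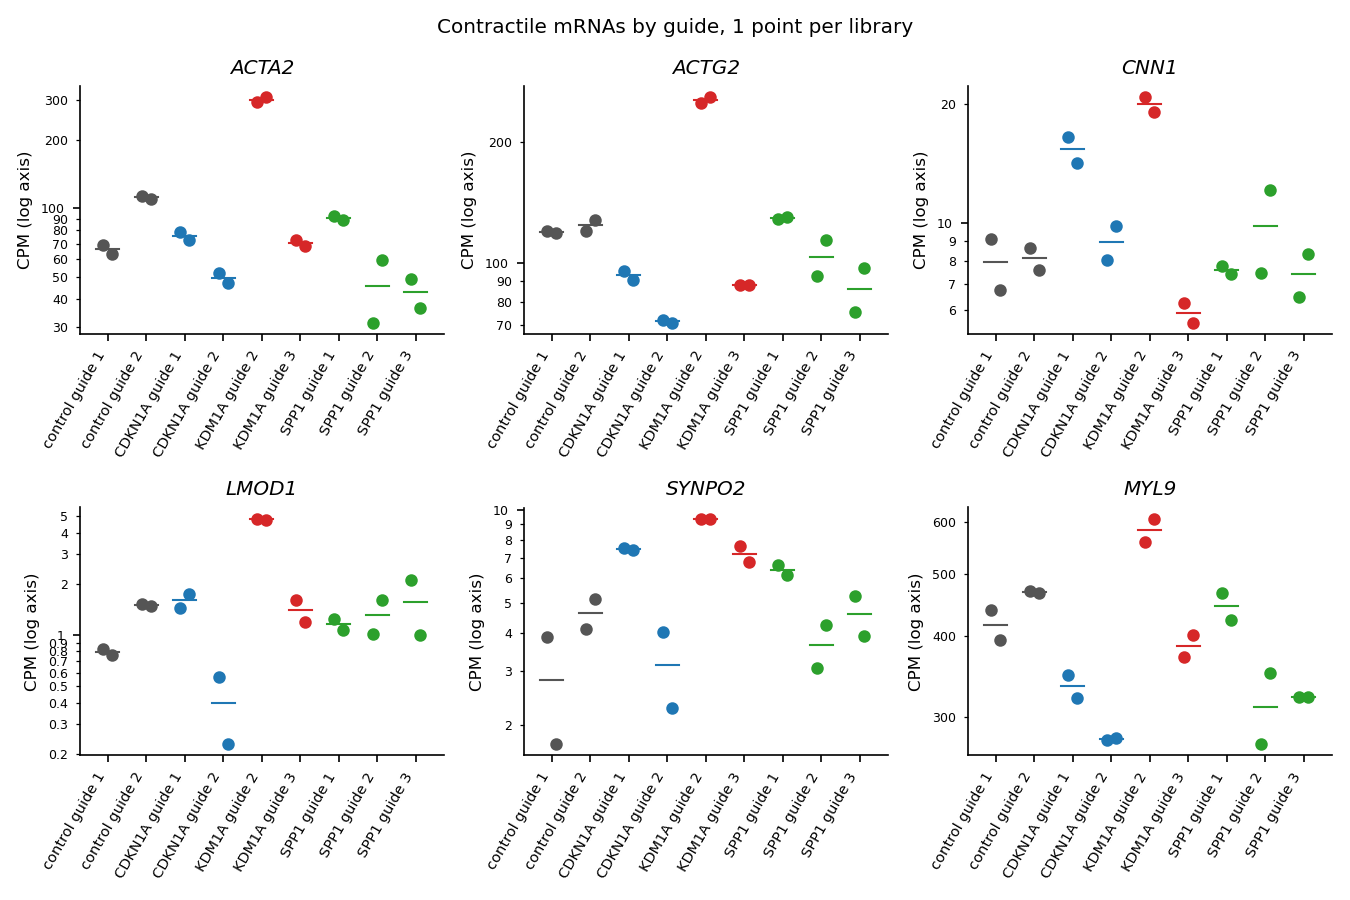
CPM (log axis) of 6 contractile mRNAs in each of the 18 libraries, grouped by guide, with 1 point per library and a line at the mean of the 2 libraries. The libraries of KDM1A guide 2 are the highest for ACTA2 (293 and 307 CPM), ACTG2 and LMOD1, and the libraries of KDM1A guide 3 lie near or below the controls for ACTA2, ACTG2, CNN1 and MYL9.

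The second smooth muscle actin followed the same order. ACTG2 (ENSG00000163017, chromosome 2, 73892314 to 73919865), the enteric gamma-actin with 2 CArG boxes, measured 251 and 259 CPM with KDM1A guide 2, 88.0 and 88.2 CPM with guide 3, and 120, 119, 120 and 128 CPM in the controls. No library of one guide overlapped the controls or the other guide. It rose 2.10-fold with guide 2 (log2 1.07 ± 0.079, adjusted p 3.56e-07) and fell with guide 3 (log2 -0.47 ± 0.086, adjusted p 0.00229), the guides differing by log2 -1.53 ± 0.097 (adjusted p 2.79e-07). The cytoplasmic actins moved less. ACTB measured 9319 and 9151 CPM with guide 2, 7883 and 7939 with guide 3, and 8794 to 9635 CPM in controls, and ACTG1 7263 and 7343, 6168 and 6074, and 7237 to 8229 CPM. Both passed as lower with guide 3 (log2 -0.21 ± 0.045 and -0.32 ± 0.038, adjusted p 0.00658 and 5.61e-05), and neither passed with guide 2 (log2 0.01 and -0.06, adjusted p 0.889 and 0.325).

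Among the thin filament regulators, calponin 1 and leiomodin 1 stood out. CNN1 (ENSG00000130176, chromosome 19, 11538717 to 11550323), which binds actin and slows actomyosin in smooth muscle, measured 20.8 and 19.1 CPM with KDM1A guide 2, 6.25 and 5.59 CPM with guide 3, and 9.12, 6.76, 8.66 and 7.61 CPM in controls. It was 2.48-fold control with guide 2 (log2 1.31 ± 0.16, adjusted p 6.61e-05), and the guides differed by log2 -1.75 ± 0.20 (adjusted p 7.99e-05). LMOD1 (ENSG00000163431, chromosome 1, 201896452 to 201946588), which nucleates actin filaments in smooth muscle, measured 4.83 and 4.74 CPM with guide 2, 1.60 and 1.19 CPM with guide 3, and 0.829, 0.766, 1.52 and 1.48 CPM in controls. It was 4.35-fold control with guide 2 (log2 2.12 ± 0.28, adjusted p 0.000124) at a level of a few CPM, and the guides differed by log2 -1.78 ± 0.33 (adjusted p 0.00465). Without replicate 2 of KDM1A guide 3 the LMOD1 difference did not pass. Caldesmon (CALD1), which hinders myosin on actin, rose with guide 2 (log2 0.20 ± 0.051) and fell with guide 3 (log2 -0.20 ± 0.052), and CNN2 rose with guide 2 (log2 0.24 ± 0.066, adjusted p 0.0257). TAGLN measured 1185 and 1237 CPM with guide 2 and 809 and 875 with guide 3, against 918 to 1195 in controls, a difference between guides of log2 -0.52 ± 0.15 (adjusted p 0.0478) that passed in 9 of 25 alternatives. Its paralogue TAGLN2 went the same way with both guides, 754 and 778, and 655 and 703 CPM, against 869 to 1074 CPM in controls. It passed with guide 3 (log2 -0.45 ± 0.11, adjusted p 0.0112) but not with guide 2 (log2 -0.28, adjusted p 0.0981), and the guides did not differ beyond their error (log2 -0.17, adjusted p 0.497).

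Tropomyosins, which lie along the actin filament and set which myosins reach it, were lower with guide 3 than with guide 2 in 3 of 4 genes, although the call of TPM2 held in only 10 of 25 alternatives. TPM1 (ENSG00000140416, chromosome 15, 63042632 to 63071915) measured 812 and 858 CPM with KDM1A guide 3, below every control (1680, 1512, 1333 and 1381 CPM), and 1550 and 1552 CPM with guide 2, within the controls. It fell with guide 3 (log2 -0.82 ± 0.053, adjusted p 1.31e-07), and the guides differed by log2 -0.89 ± 0.059 (adjusted p 4.10e-07). TPM2 rose with guide 2 (log2 0.27 ± 0.078) and TPM4 fell with guide 3 (log2 -0.21 ± 0.040), while TPM3 passed with neither (log2 0.06 and -0.01). The leading TPM1 transcript, TPM1-206, which held 61.3% of the gene's TPM, measured 1007 and 1018 TPM with guide 2 and 529 and 550 TPM with guide 3.

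Of the myosins, the regulatory light chain MYL9, which myosin light chain kinase phosphorylates to start contraction, rose with guide 2 from 394 to 469 CPM in controls to 560 and 608 CPM (log2 0.40 ± 0.081, adjusted p 0.00331). With guide 3 it measured 371 and 402 CPM, and the guides differed by log2 -0.59 ± 0.095 (adjusted p 0.00142). Non-muscle myosin IIA (MYH9) fell with guide 3 (log2 -0.29 ± 0.065, adjusted p 0.00919), at 3201 and 3242 CPM against 3526 to 4328 CPM in controls. Non-muscle myosin IIB (MYH10) was the only member called higher with guide 3 than with guide 2, at 79.8 and 83.5 CPM with guide 2, 112 and 104 CPM with guide 3, and 105 to 117 CPM in controls (guide 2 log2 -0.46 ± 0.053, adjusted p 3.53e-05; difference between guides log2 0.41 ± 0.060, adjusted p 0.000796). MYL6 and MYLK passed in none of the 3 comparisons.

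The crosslinkers divided in a similar way. Alpha-actinins ACTN1 and ACTN4, filamin A (FLNA) and palladin (PALLD) were lower with guide 3 than with guide 2, by log2 -0.44, -0.28, -0.32 and -0.31 (adjusted p 0.00191, 0.0165, 0.00989 and 0.00757). ACTN1 measured 961 and 913 CPM with guide 3, 1252 and 1298 with guide 2, and 1211 to 1283 CPM in controls. SYNPO2 (ENSG00000172403, chromosome 4, 118850688 to 119061247), a partner of alpha-actinin and filamin, was the member that rose with both guides. It measured 9.34 and 9.36 CPM with guide 2 and 7.64 and 6.78 CPM with guide 3, above the controls at 3.87, 1.74, 4.10 and 5.13 CPM (log2 1.38 ± 0.23 and 1.00 ± 0.24, adjusted p 0.000990 and 0.0130). Over all KDM1A libraries it rose 2.24-fold (log2 1.16 ± 0.32, adjusted p 0.0271). That call was lost without either library of control guide 1 or of KDM1A guide 2. SYNPO2 was not called between KDM1A and CDKN1A or SPP1 libraries. With SPP1 guide 1 it measured 6.61 and 6.16 CPM, also above every control.

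Focal adhesion and LIM domain proteins, which couple the filament ends to integrins, differed between the KDM1A guides by log2 -0.92 to 0.06 (median -0.12). PDLIM7, a LIM protein of stress fibres, was the only one of 10 that passed, at log2 -0.29 ± 0.072 (adjusted p 0.0291). It measured 295 and 303 CPM with guide 2, 251 and 240 with guide 3, and 403, 408, 300 and 297 CPM in the controls, whose guides differed from each other (log2 -0.44 ± 0.071, adjusted p 0.00694). FHL2, a LIM protein that binds SRF, measured 300, 307, 271 and 286 CPM in the KDM1A libraries and 369, 333, 317 and 316 CPM in controls, with no overlap. Its fall over the group was small (log2 -0.20 ± 0.055, adjusted p 0.0273). FHL1 measured 91.5 and 44.4 CPM in the replicates of KDM1A guide 2, against 26.7 to 64.9 CPM in controls, so its call as higher with that guide (log2 0.86 ± 0.26, adjusted p 0.0387) rests on replicates that differ by more than 2-fold. SRF itself measured 81.3 and 80.4 CPM with guide 2 and 71.6 and 74.2 with guide 3, and 98.2, 98.9, 77.4 and 75.1 CPM in controls, whose guides differed (log2 -0.37 ± 0.065, adjusted p 0.0120). MRTFA did not pass with either guide (log2 0.06 and -0.18).

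**Figure D2:**
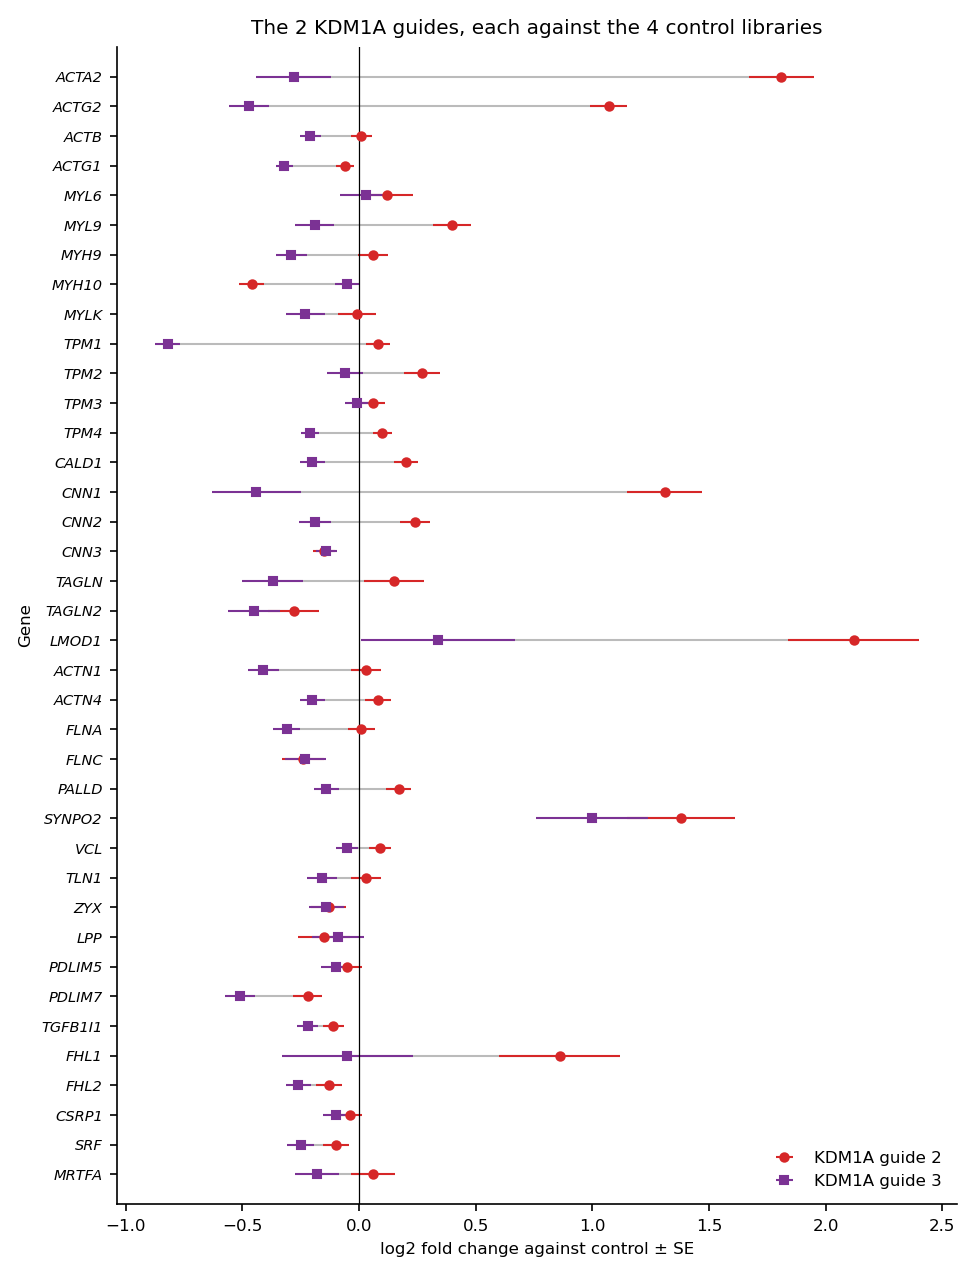
Log2 fold change against the 4 control libraries, with its SE as a bar, of the 38 tested members for KDM1A guide 2 (circles) and guide 3 (squares), joined by a line for each gene. The circles of ACTA2, ACTG2, CNN1 and LMOD1 lie between 1.07 and 2.12 and their squares between -0.47 and 0.34, and MYH10 has its circle to the left of its square.

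Counted over the set, 11 of 38 members were higher and 3 lower with KDM1A guide 2, where 8.41% of all tested genes were higher and 5.68% lower. With KDM1A guide 3, 1 was higher and 15 lower, against 6.34% and 5.17% of all genes. Between the guides, 19 members were lower with guide 3 and 1 higher, against 4.04% and 2.11% of all genes. The median log2 difference was -0.27 over the members and 0.003 over all tested genes. Of the smooth muscle markers outside the set, SMTN, MYOCD and KCNMB1 were tested, and 0 passed between the guides in edgeR's test (0 also at an unadjusted p under 0.05), with SMTN at 347 and 358 CPM with guide 2 and 359 and 360 CPM with guide 3 and a median log2 difference of -0.17. Of the 12 members with a CArG match, 6 were lower with guide 3 than with guide 2, as were 10 of the 23 without a match. This split rests on exact matches, and ACTA2 and LMOD1, with close matches, stand among the 23. These counts therefore cannot show whether genes with a working box behave alike. The group fit pools the guides of a target and weighs every library alike. Its error holds the spread between guides only in part, since libraries that share a guide are not independent. In this fit 1 member was higher (SYNPO2) and 3 lower (TAGLN2, FHL2 and PDLIM7) in KDM1A libraries than in controls. Of all genes, 5.33% were higher and 3.73% lower. ACTA2 was at log2 1.06 ± 0.42 (adjusted p 0.132) and LMOD1 at log2 1.42 ± 0.48 (adjusted p 0.0703), and neither passed. When both libraries of each guide were summed, 0 members passed for KDM1A, and calls over all genes fell from 1225 to 162. KDM1A mRNA was 73.2 and 75.0 CPM with guide 2, 50.7 and 52.0 CPM with guide 3 and 110 to 125 CPM in controls, so the guide with less KDM1A mRNA is the one without the rise; its part in the result was not tested. The 8 fibroblast markers summed to 15393 to 15655 CPM with guide 2 and 13555 to 14013 CPM with guide 3, against 14132 to 14788 CPM in controls. They did not move alike. COL1A1 measured 5588 and 5629 CPM with guide 2 and 4045 and 4173 CPM with guide 3. VIM went the other way, at 6108 and 6177 and at 6646 and 6790 CPM, as did PDGFRA, at 6.89 and 9.29 and at 14.3 and 14.2 CPM. The part of these markers was not tested either. Each guide has 2 libraries. The count of members called between the guides (20 in all) was 12 and 13 without replicate 1 or 2 of guide 2. It was 13 and 11 without those of guide 3. Guide 2 against control (14 in all) gave 7 without either library of guide 2 and 9 without either of control guide 2. Guide 3 against control (16 in all) gave 7 and 8 without replicate 1 or 2 of guide 3. Over the group (4 in all) it was 0 and 1 without replicate 1 or 2 of control guide 1. Calls over all genes fell too in these fits. Between the guides they fell from 832 to between 279 and 325, and with guide 2 from 1907 to between 901 and 1562. With guide 3 they fell from 1558 to 759 and 663, and over the group from 1225 to 828 and 773.

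In the SPP1 knockdown, 14 of 38 members fell and 0 rose in edgeR's test, against 3.06% and 2.4% of all tested genes. At an unadjusted p under 0.05, 18 were lower and 1 higher, and DESeq2 called 15 lower and 0 higher. The median log2 fold change was -0.21 over the members and 0.004 over all tested genes. TPM1 fell most among those that passed. Its 6 SPP1 libraries ranged from 830 to 1097 CPM with a median of 906, all below the 4 controls (1333 to 1680 CPM), a log2 fold change of -0.64 ± 0.16 (adjusted p 0.0223). FHL2 had the smallest p. It ranged from 265 to 298 CPM with a median of 275, again below every control (316 to 369 CPM), at log2 -0.27 ± 0.050 (adjusted p 0.00573). TAGLN2 ranged from 595 to 857 CPM (median 698) and was lower by log2 -0.40 ± 0.083 (adjusted p 0.00922), with its highest library just under the lowest control at 869 CPM.

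Both cytoplasmic actins fell in SPP1 libraries. ACTG1 ranged from 5626 to 6972 CPM (median 6176) against 7237 to 8229 CPM in controls, with no overlap (log2 -0.29 ± 0.065, adjusted p 0.0158). ACTB ranged from 6301 to 8606 CPM (median 7234) against 8794 to 9635 CPM (log2 -0.31 ± 0.076, adjusted p 0.0241). Crosslinkers contributed 4 of the 14, FLNA, the muscle filamin FLNC, ACTN1 and ACTN4, at log2 -0.21 to -0.35. The calls of ACTN1 and ACTN4 held in only 12 and 7 of 31 alternatives, those of FLNA and FLNC in 27 and 25. FLNA ranged from 4492 to 5127 CPM (median 4867), below every control (5464 to 6426 CPM). Among adhesion proteins, talin (TLN1), the zyxin relative LPP, PDLIM7, FHL2 and the paxillin relative TGFB1I1 passed, at log2 -0.25 to -0.38. The call of LPP held in only 10 of 31 alternatives, those of the others in 23 to 29. TGFB1I1 ranged from 112 to 127 CPM (median 122) against 134 to 157 CPM. The non-muscle myosin MYH9 was lower by log2 -0.31 ± 0.082 (adjusted p 0.0311). ACTA2 and ACTG2 did not pass over the group (log2 -0.56 ± 0.39 and -0.19 ± 0.25, adjusted p 0.447 and 0.724). Without replicate 1 or 2 of control guide 1 the count was 7 and 2, without replicate 1 of control guide 2 it was 9, and without those of SPP1 guide 2 it was 9 and 8. Without both libraries of control guide 1, 0 members passed, and without SPP1 guide 2, 2 did, TAGLN2 and FHL2 (log2 -0.38 and -0.26). Calls over all genes fell too, from 738 of 13527 to between 194 and 518 without 1 of the libraries named above. They were 7 of 13865 without control guide 1 and 268 of 13488 without SPP1 guide 2.

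**Figure D3:**
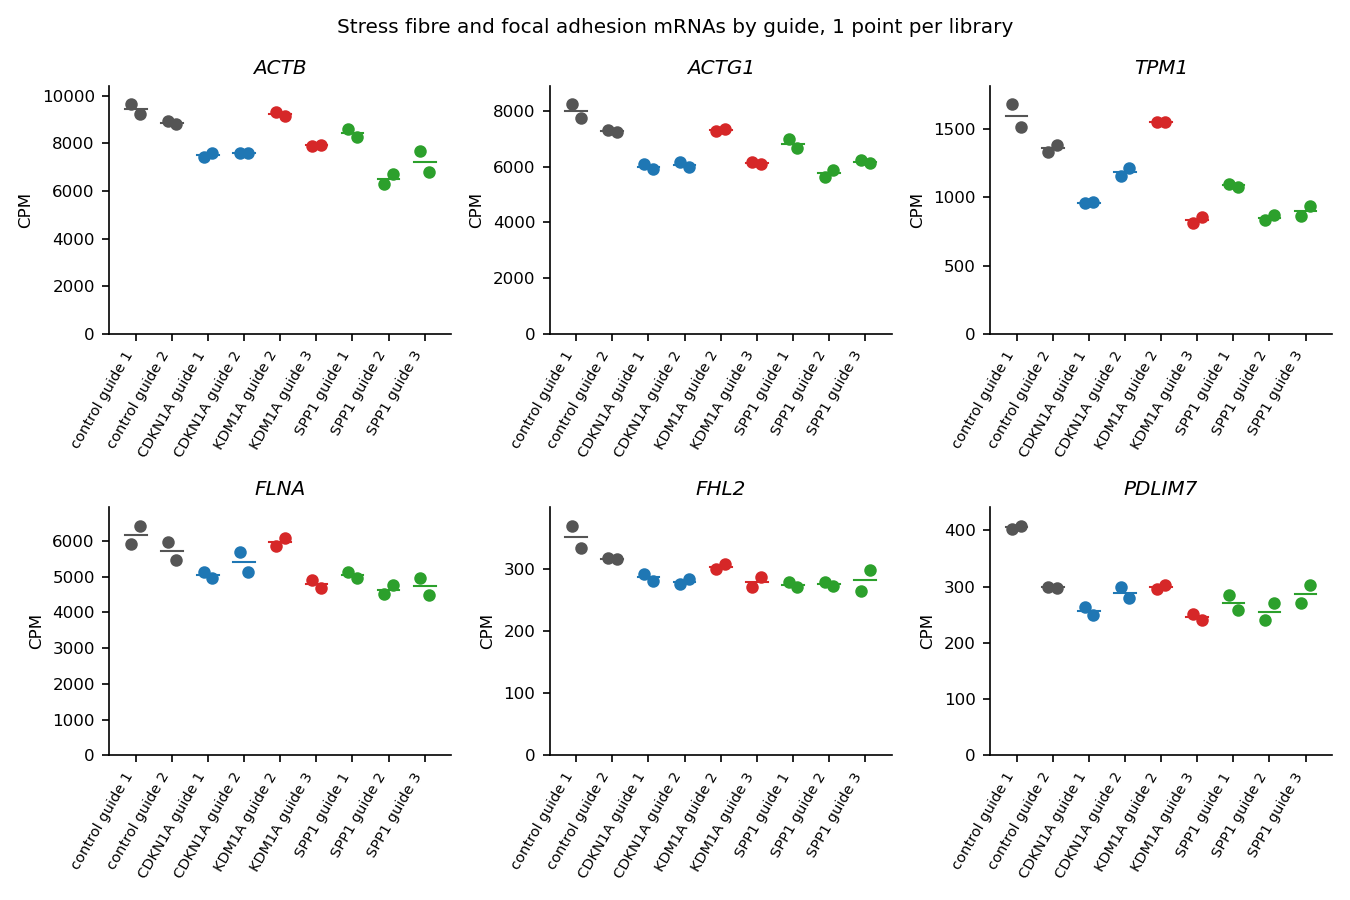
CPM (linear axis from 0) of 6 stress fibre and focal adhesion mRNAs in each of the 18 libraries, grouped by guide, with 1 point per library and a line at the mean of the 2 libraries. All 6 SPP1 libraries lie below the 4 controls for ACTB, ACTG1, TPM1, FLNA and FHL2, and the 2 control guides stand apart for PDLIM7 (403 and 408 against 300 and 297 CPM).

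The SPP1 guides did not give the same picture for ACTA2. It measured 92.7 and 88.5 CPM with guide 1, within the controls, but 31.5 and 59.4 CPM with guide 2 and 49.1 and 36.5 CPM with guide 3, all 4 below every control. In the fit per guide it fell with guides 2 and 3 (log2 -0.92 ± 0.17 and -1.0 ± 0.17, adjusted p 0.00293 and 0.00145) and was at log2 0.08 ± 0.15 with guide 1. Guide 1 was higher than guide 2 by log2 0.99 ± 0.19 (adjusted p 0.0141) and than guide 3 by log2 1.07 ± 0.18 (adjusted p 0.00614). MYL9, ACTB and TPM1 were also higher with guide 1 than with either other guide. In all, 6 members were higher with guide 1 than with guide 2 (1.13% of all genes) and 6 than with guide 3 (1.69%). Guides 2 and 3 differed in 0 of 38 members by edgeR's test (8 at an unadjusted p under 0.05) and in 0.214% of all genes. Against control, 7 members were lower with guide 1, 19 with guide 2 and 20 with guide 3, where 2.59%, 5.23% and 5.99% of all genes were. SPP1 mRNA itself measured 24.2 and 26.9 CPM with guide 1, 47.4 and 55.2 with guide 2, 63.0 and 21.7 with guide 3, and 55.2 to 72.7 CPM in controls. The guide with the fewest lower members was thus the one with low SPP1 mRNA in both libraries; its part in the result was not tested.

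In the CDKN1A knockdown most members measured lower, and few passed over the group. The fold change was negative for 35 of 38 members (92.1%, against 51.1% of all tested genes), with a median of log2 -0.20 over the members and -0.004 over all tested genes. In edgeR's test 4 fell and 0 rose, against 0.917% and 1.09% of all genes, with 21 lower and 1 higher at an unadjusted p under 0.05, and DESeq2 called 9 lower and 0 higher. ACTG1 measured 6081, 5907, 6153 and 5984 CPM, all below the controls (7237 to 8229 CPM), at log2 -0.34 ± 0.071 (adjusted p 0.0209). CNN2 measured 256, 242, 233 and 233 CPM against 349, 352, 311 and 294 CPM, at log2 -0.44 ± 0.10 (adjusted p 0.0371). FHL2 (291, 281, 276 and 283 CPM) and zyxin (ZYX, 303, 269, 292 and 277 CPM against 308 to 378 CPM) were lower by log2 -0.24 ± 0.055 and -0.28 ± 0.070 (adjusted p 0.0310 and 0.0448). None of these 4 overlapped the controls. The call of ZYX held in only 10 of 30 alternatives, those of ACTG1, CNN2 and FHL2 in 22, 17 and 17. The count of 4 became 0 without either library of control guide 1 or replicate 2 of either CDKN1A guide. It became 1 without replicate 1 of either CDKN1A guide or of control guide 2. Calls over all genes fell too in these fits, from 271 to between 54 and 132.

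By guide, 15 members were lower and 3 higher with CDKN1A guide 1 (2.34% and 2.35% of all genes), and 18 were lower with guide 2 (3.32%). ACTG2 fell with both, at 95.7 and 90.7 CPM with guide 1 and 71.9 and 71.0 CPM with guide 2 (log2 -0.39 ± 0.085 and -0.77 ± 0.089, adjusted p 0.0169 and 0.000125). ACTA2 measured 78.4 and 72.8 CPM with guide 1, within the controls, and 51.9 and 47.1 CPM with guide 2, where it fell (log2 -0.79 ± 0.16, adjusted p 0.00959). CNN1 went the other way with guide 1, at 16.5 and 14.2 CPM against 6.76 to 9.12 CPM in controls (log2 0.93 ± 0.16, adjusted p 0.00409), as did SYNPO2 at 7.51 and 7.39 CPM (log2 1.05 ± 0.24, adjusted p 0.0193) and MYH10 (log2 0.28 ± 0.050). At an unadjusted p under 0.05, 3 members were higher and 7 lower with CDKN1A guide 2 than with guide 1. After adjustment the CDKN1A guides differed from each other in 2 members (1.28% of all genes in either direction). LMOD1 was lower with guide 2 (log2 -1.97 ± 0.45, adjusted p 0.0447) at 0.564 and 0.228 CPM against 1.45 and 1.75 CPM, and TPM1 was higher (log2 0.30 ± 0.059, adjusted p 0.0177). The control guides also differed in 2 members, PDLIM7 and SRF (1.34% of all genes in either direction), both higher with control guide 1. At an unadjusted p under 0.05, 13 members were lower and 6 higher with control guide 2 than with control guide 1.

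**Figure D4:**
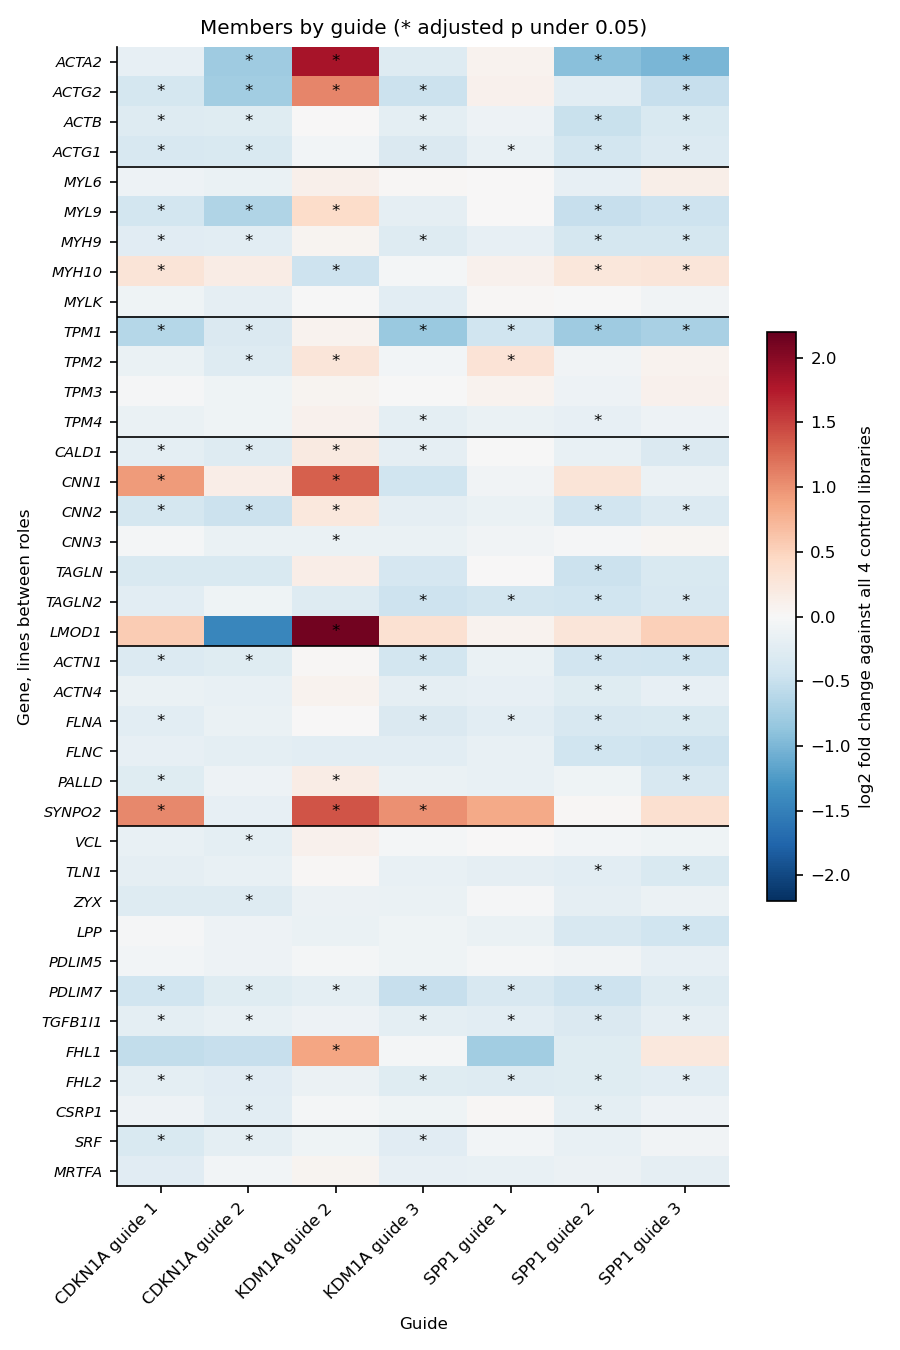
Log2 fold change of the 38 tested members (rows, with lines between roles) for each of the 7 targeting guides (columns) against all 4 control libraries, on a scale from blue (lower) to red (higher), with a star where the adjusted p was under 0.05. The column of KDM1A guide 2 is red for ACTA2, ACTG2, CNN1, LMOD1 and SYNPO2, and the columns of CDKN1A guide 2 and SPP1 guides 2 and 3 are blue for ACTA2.

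The knockdowns were also set against each other. In KDM1A libraries 7 members were higher and 1 lower than in CDKN1A libraries, against 8.06% and 6.91% of all genes. Those higher were ACTA2 (log2 1.56 ± 0.43, adjusted p 0.0193), ACTG2, LMOD1, CNN2, MYL9, FHL1 and vinculin (VCL), and MYH10 was lower (log2 -0.46 ± 0.086, adjusted p 0.00113). Against SPP1 libraries 3 were higher and 1 lower (6.88% and 5% of all genes), with ACTA2 at log2 1.63 ± 0.38 (adjusted p 0.00920) and MYH10 at -0.44 ± 0.079 (adjusted p 0.00109). The ACTA2 values join the libraries of KDM1A guide 2 at 293 and 307 CPM with those of guide 3 at 72.6 and 68.5 CPM. The latter lie within the 31.5 to 92.7 CPM of SPP1 and the 47.1 to 78.4 CPM of CDKN1A libraries. Guide 3 also lay within the CDKN1A libraries for ACTG2 (88.0 and 88.2 against 71.0 to 95.7 CPM) and LMOD1 (1.60 and 1.19 against 0.228 to 1.75 CPM). For CNN2, MYL9, FHL1 and VCL it lay above every CDKN1A library. CDKN1A and SPP1 libraries differed in 0 members by edgeR's test, with 2 higher and 4 lower at an unadjusted p under 0.05, and in 12.1% of all genes.

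Library by library, the median shift of the 38 members from the control mean was 0.04 and 0.07 on the log2 scale with KDM1A guide 2 and -0.20 in both libraries of guide 3. The controls lay between -0.06 and 0.06, CDKN1A libraries between -0.26 and -0.16 and SPP1 libraries between -0.28 and -0.10. Over all tested genes the median stayed between -0.007 and 0.013 in every library. All 10 CDKN1A and SPP1 libraries and both of KDM1A guide 3 were therefore below the controls by this measure, and both of KDM1A guide 2 were not.

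**Figure D5:**
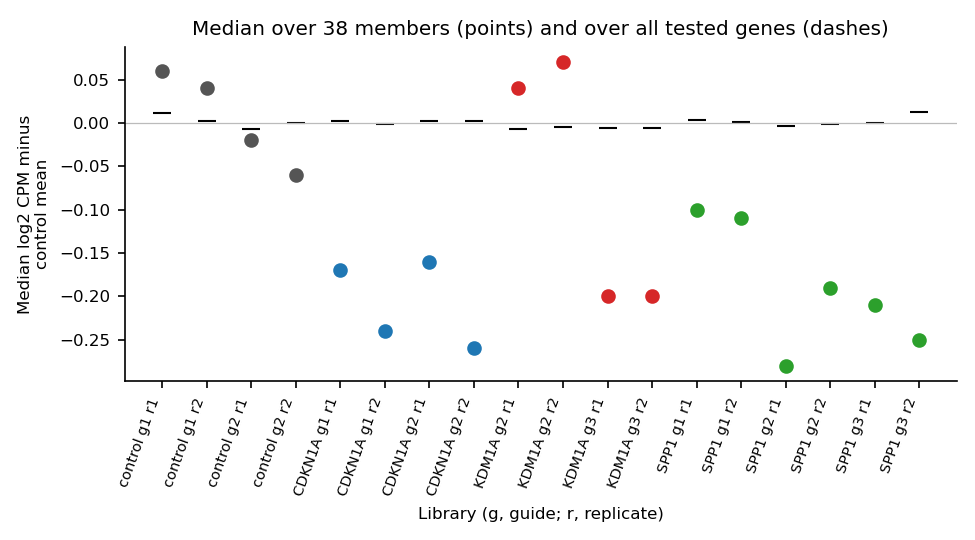
Median log2 CPM minus the control mean in each of the 18 libraries, over the 38 tested members (points) and over all 13527 tested genes (dashes). Members lie between -0.06 and 0.07 in the controls and KDM1A guide 2 and between -0.28 and -0.10 in the other libraries.

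The likeness of members was measured by Pearson's r over the 18 libraries. ACTA2 was most like MYL9 (r 0.89 on log2 CPM), ACTG2 (0.88) and CALD1 (0.85), and LMOD1 was most like SYNPO2 (0.76) and ACTA2 (0.74). MYH9 was most like FLNA, TLN1 and ACTN1, each at 0.94, and PDLIM7 most like TGFB1I1 (0.93), SRF (0.84) and FHL2 (0.83). CNN2 was close both to MYL9 (0.89) and to MYH9 (0.87). The best match of MYH10 was CNN3 at 0.38. Over all 703 pairs the median r was 0.43. These points share groups, guides and library preparation, so the values describe these libraries and carry no test.

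Other genes of the pathway were tested as well. Of the 5 SRF cofactors, only the ternary complex factor ELK3 passed in the group comparisons with control, lower in KDM1A (log2 -0.22 ± 0.049, adjusted p 0.00743) and SPP1 libraries (log2 -0.17 ± 0.045, adjusted p 0.0309). Myocardin (MYOCD), the smooth muscle cofactor of SRF, measured 10.6 and 10.5 CPM with KDM1A guide 2 and 8.94 and 9.86 with guide 3, against 10.2 to 13.5 CPM in controls, and did not pass with either guide. With CDKN1A guide 2 it measured 4.94 and 5.25 CPM, below every control, and fell (log2 -1.24 ± 0.21, adjusted p 0.00208). MRTFB, a relative of MRTFA, measured 24.0 and 22.8 CPM with KDM1A guide 2 against 26.8 to 31.1 CPM in controls and fell with that guide (log2 -0.30 ± 0.087, adjusted p 0.0302). It was also lower in KDM1A than in CDKN1A libraries (log2 -0.44 ± 0.084, adjusted p 0.00147) and SPP1 libraries (log2 -0.30 ± 0.078, adjusted p 0.0178).

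Immediate early SRF targets, which answer growth factors within minutes through ELK factors, were tested in 5 of 7 genes. FOS and FOSB fell in each knockdown, FOS by log2 -1.67, -1.52 and -1.01 and FOSB by -2.49, -1.98 and -1.48 in KDM1A, CDKN1A and SPP1 libraries. FOS, however, measured 31.7 and 31.8 CPM with control guide 1, 9.32 and 8.47 with control guide 2 and 5.80 to 12.4 CPM in all other libraries. FOSB likewise measured 23.1 and 26.8 CPM with control guide 1 and 5.15 and 5.90 with control guide 2. Both libraries of control guide 1 were above every other library for these genes, and control guide 2 lay close to the knockdowns. EGR1 was lower in SPP1 libraries (log2 -0.59 ± 0.14, adjusted p 0.0210) and lower with KDM1A guide 3 than guide 2 (log2 -0.68 ± 0.16, adjusted p 0.0192).

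Targets shared by YAP and MRTF were looked at gene by gene. The matricellular factor CCN2 fell in each knockdown (log2 -0.42, -0.64 and -0.62 in KDM1A, CDKN1A and SPP1 libraries). It measured 1473 and 1485 CPM with control guide 1 and 1224 and 1230 CPM with control guide 2, which differed (log2 -0.27 ± 0.054, adjusted p 0.0222). KDM1A guide 2, at 1169 and 1191 CPM, lay just below control guide 2, and KDM1A guide 3 measured 848 and 840 CPM (difference between guides log2 -0.48 ± 0.054, adjusted p 6.21e-05). The muscle ankyrin repeat protein ANKRD1 measured 266 and 264 CPM with guide 2, 95.1 and 97.3 with guide 3 and 126 to 146 CPM in controls (difference between guides log2 -1.46 ± 0.16, adjusted p 4.03e-05), the same order as ACTA2. Of 18 genes of TGF-beta signalling, 2 fell in edgeR's test in KDM1A libraries, PMEPA1 (log2 -1.69 ± 0.28) and the receptor TGFBR1 (log2 -0.40 ± 0.068), and 0 rose (1 at an unadjusted p under 0.05), where 3.73% of all genes fell and 5.33% rose. PMEPA1 measured 14.2 and 15.3 CPM with control guide 1 and 7.99 and 6.14 CPM with control guide 2, so the controls differed here too. In CDKN1A libraries only the co-receptor ENG passed, as lower (log2 -0.37 ± 0.076, adjusted p 0.0202), where 0.917% of all genes fell. In SPP1 libraries 2 rose, among them the receptor TGFBR2 (log2 0.58 ± 0.10, adjusted p 0.00471), and 4 fell, among them the inhibitors SKIL and SMAD7 (log2 -0.53 and -0.74), where 2.4% of all genes rose and 3.06% fell. SMAD7 was also lower with KDM1A guide 3 than with guide 2 (log2 -0.70 ± 0.080), and TGFBR2 higher (log2 0.48 ± 0.061). Of 17 other focal adhesion genes, 2 fell and 0 rose by edgeR's test in each knockdown (1, 1 and 3 higher at an unadjusted p under 0.05 in KDM1A, CDKN1A and SPP1 libraries), TES and EVL in KDM1A, the fibronectin receptor subunit ITGA5 and EVL in CDKN1A, and TES and the tensin TNS1 in SPP1 libraries. Of all genes, 3.73%, 0.917% and 3.06% fell in KDM1A, CDKN1A and SPP1 libraries.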

How the data were processed

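Poly(A) RNA of 18 libraries was quantified by the authors with kallisto on GRCh38 (hg38), per the submitters' processing notes. Its version, transcriptome release and strand setting are not given in the sources used. Each deposited table gives estimated counts, TPM and effective lengths for 188753 transcripts, of which 169797 (90%) matched GENCODE 29 by identifier. Unmatched transcripts held 2.49 to 2.62% of counts and were left out. Estimated counts were summed per gene and rounded, and deposited TPM were summed per gene and served only to compare levels between genes. With edgeR 4.0.16 in R 4.3.3, genes were kept by filterByExpr with a count minimum of 10, scaled by TMM, and tested by quasi-likelihood with 1 coefficient per group over all 18 libraries (biological coefficient of variation 9.32%), or 1 per guide (6.92%). Control is then the mean of both control guides, and guides share these controls, so their comparisons with control are not independent. With a coefficient per group, libraries that share a guide are counted as if independent, so p-values over a group may be too small. A gene was called at a Benjamini-Hochberg adjusted p under 0.05 over 13527 genes. CPM are TMM-scaled, and shifts and correlations use log2 CPM with a prior count of 2.

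Named members are those called in a group comparison or between the KDM1A guides, up to 15 by p, and from each pathway list up to 3 called genes of smallest p or else the gene of smallest p. Other genes named with values were chosen after their values were seen. The members and lists were chosen with earlier results of these data known. Some results of the pathway lists are not reported here. The test was checked on simulated counts, drawn independently for each library with no effect shared within a guide. That check cannot speak to the dependence between libraries of a guide. Alternatives were RLE scaling, no filter on low counts, a replicate block, a length offset, fits of only the 2 groups, a coefficient per guide, summed libraries of a guide, DESeq2 1.42.0 and leaving out each library or guide. Leaving out a targeting guide was added after the data were seen.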

Additional observations from a re-analysis of the deposited data

Results flagged for a closer look

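A library far from the rest of its group was found in 6 of the 104 groups of 4 or 6 libraries checked, where chance flags about 1 in 20. ACTG2 was high at 128 CPM in replicate 2 of control guide 2 (others 119 to 120), and TAGLN2 at 1074 CPM in replicate 1 of control guide 1 (others 869 to 899). PALLD was low at 491 CPM in that same library (others 532 to 536). ACTB was low at 7423 CPM in replicate 1 of CDKN1A guide 1 (others 7585 to 7609), and TPM4 at 1870 CPM in replicate 2 of that guide (others 1994 to 2011). CNN1 was high at 12.1 CPM in replicate 2 of SPP1 guide 2 (others 6.48 to 8.33).

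For 20 members the effect against control differed between the KDM1A guides by edgeR's test of the difference, given as log2 of guide 3 over guide 2. The differences were largest for 4 genes, ACTA2 at -2.09, LMOD1 at -1.78, CNN1 at -1.75 and ACTG2 at -1.53. TPM1 followed at -0.89, MYL9 at -0.59 and TAGLN at -0.52. ACTN1 was at -0.44, CNN2 at -0.43, CALD1 at -0.40, MYH9 at -0.35, TPM2 at -0.33, FLNA at -0.32, PALLD at -0.31 and TPM4 at -0.30. PDLIM7 was at -0.29, ACTN4 at -0.28, ACTG1 at -0.25 and ACTB at -0.22, and MYH10 was the one of the 20 with a positive difference, at 0.41.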

How the results depend on the processing

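Counts of members called are given here, and the cause of each change was not tested beyond the construction named. For KDM1A against control (4), the count was 0 without control guide 1 and with the libraries of a guide summed, 7 without control guide 2 and without KDM1A guide 2, 16 with a coefficient per guide, and 0 to 6 without 1 library. For CDKN1A (4), it was 0 without control guide 1, without either CDKN1A guide and with summed libraries, 1 with a length offset, 7 without control guide 2, 9 by DESeq2, 14 with only the 2 groups, 24 with a coefficient per guide, and 0 to 6 without 1 library. For SPP1 (14), it was 0 without control guide 1 and with summed libraries, 2 without SPP1 guide 2, 7 without SPP1 guide 3, 8 with only the 2 groups, 22 with a coefficient per guide, and 2 to 14 without 1 library. For KDM1A guide 2 (14) it was 7 to 17 without 1 library, for guide 3 (16) 8 without control guide 1 and 7 to 22 without 1 library, and between these guides (20) 11 to 21. Calls over all genes moved as well. KDM1A (1225) had 417 without control guide 1 and 162 with summed libraries. It had 2229 with a coefficient per guide and 1114 with only the 2 groups. In the same order, CDKN1A (271) had 42, 1, 1172 and 588, and SPP1 (738) had 7, 1, 1761 and 393. Without 1 library, KDM1A guide 2 (1907) had 901 to 2449 and guide 3 (1558) had 663 to 2057. Between these guides (832) there were 279 to 1199. Summing leaves 1 sample per guide. Replicate numbers did not pair the libraries, with correlations of deviations from -0.0755 to 0.0137. With the replicate block, CDKN1A gave 2 calls, KDM1A 4 and SPP1 11. Without KDM1A guide 2, only 8 fold changes of KDM1A against control were followed. Of these, 3 reversed, ACTA2 to log2 -0.32, ACTG2 to -0.46 and CNN1 to -0.44. Reversals among the other members were not counted. ACTA2, ACTG2, CNN1, TPM1, MYL9, CALD1, CNN2, TPM4, ACTN1 and MYH10 kept their difference between the KDM1A guides in all 25 alternatives run for it. Depth limits LMOD1, SYNPO2 and CNN1, at few CPM.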
